A study of Mus musculus with 8 samples.

Results

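The genes described here are 9 genes of the Hedgehog pathway, *Shh*, *Ptch1*, *Smo*, *Gas1*, *Boc*, *Hhip*, *Gli1*, *Gli2* and *Gli3*, chosen by their symbols in the annotation of the array. Each of the 9 was measured by 1 transcript cluster (the set of probes along a transcript that is summarised into a single value), out of 19938 gene symbols on the array. Expression was measured at Day 4 of N2B27 differentiation, a serum-free culture in which mouse ES cells become neural progenitor (NP) cells. The *Sox3* null cells were R1 ES cells whose only *Sox3* exon has been exchanged for GFP. The control cells were R1 ES cells with a conditional *Sox3* allele, are labelled *Sox3* positive and are treated in the methods as wild type. There were 4 cultures of each genotype, 2 in each of 2 differentiation batches, which the labels describe as independent differentiation series, and each culture had its own array. Each genotype is represented by a targeted ES cell line of its own, so *Sox3* loss and other differences of these lines cannot be told apart. Batches differ in everything that was done separately for each series, and these causes cannot be told apart either.

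Hedgehog signalling begins when a secreted ligand such as SHH binds PTCH1, the receptor that otherwise holds SMO inactive. SMO then acts through the primary cilium on the zinc finger factors GLI1, GLI2 and GLI3, which turn target genes on or, as cleaved repressors, off. GAS1 and BOC are co-receptors that help PTCH1 bind ligand, and HHIP is a membrane protein that captures ligand. *Ptch1*, *Hhip* and *Gli1* are themselves targets of the pathway, so their transcript levels are commonly read as a measure of its activity. In the neural tube SHH from the notochord and floor plate patterns progenitors along the dorsoventral axis, inducing ventral factors such as NKX2-2 and OLIG2 and repressing dorsal ones such as PAX7.

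The array medians lay between 7.63 and 7.70 on the log2 scale. *Sox3* read 8.67 and 8.37 in batch 2 and 8.39 and 8.56 in batch 1 in *Sox3* null cells, against 9.73 and 9.76 in batch 2 and 9.92 and 9.84 in batch 1 in control cells, so the arrays followed their labels. All 6 neural progenitor markers lay above the median signal, as did 4 of 6 pluripotency markers (*Pou5f1*, *Nanog*, *Zfp42* and *Esrrb*), 2 of 5 notochord and floor plate markers, 2 of 5 endoderm markers, 3 of 9 fibroblast markers and 5 of 5 neuronal markers. The fibroblast list was included because the methods describe culture on feeder cells and the labels describe gelatine coated plates. Of the 9 Hedgehog genes, 6 lay above the median signal of 7.67, and *Shh* (mean 7.16), *Hhip* (6.99) and *Gli1* (7.64) lay below it. These 3 were nonetheless brighter than at least 99.0% of 1035 transcript clusters of olfactory receptors, genes not expected in these cells. This does not show that they were expressed, since *Sox3* still read 8.37 to 8.67 in null cells, which lack its only exon. Signal also depends on the probes, so levels are not compared between genes.

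RefSeq promoters of build GRCm38.p6 were matched for 6 of the 9 genes, *Ptch1*, *Smo*, *Gas1*, *Hhip*, *Gli2* and *Gli3*. The 250 bases before the start site are shown for *Ptch1* (chr13:63565736-63565985, minus strand), *Smo* (chr6:29735247-29735496, plus strand) and *Gli2* (chr1:119053620-119053869, minus strand), which moved together between the batches, and for *Gas1* (chr13:60177536-60177785, minus strand), which differed most between the genotypes. They are written 5′ to 3′ in the direction of transcription, and capitals mark CG dinucleotides.
Ptch1: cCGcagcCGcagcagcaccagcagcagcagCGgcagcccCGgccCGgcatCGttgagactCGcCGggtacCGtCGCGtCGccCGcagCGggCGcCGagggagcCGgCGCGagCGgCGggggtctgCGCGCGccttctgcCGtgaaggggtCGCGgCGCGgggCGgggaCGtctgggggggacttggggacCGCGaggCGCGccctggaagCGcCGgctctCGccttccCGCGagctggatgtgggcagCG
Smo: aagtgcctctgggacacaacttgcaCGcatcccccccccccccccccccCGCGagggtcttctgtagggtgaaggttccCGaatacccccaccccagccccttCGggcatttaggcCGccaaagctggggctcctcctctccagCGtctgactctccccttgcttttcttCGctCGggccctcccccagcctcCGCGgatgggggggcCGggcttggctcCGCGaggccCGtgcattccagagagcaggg
Gli2: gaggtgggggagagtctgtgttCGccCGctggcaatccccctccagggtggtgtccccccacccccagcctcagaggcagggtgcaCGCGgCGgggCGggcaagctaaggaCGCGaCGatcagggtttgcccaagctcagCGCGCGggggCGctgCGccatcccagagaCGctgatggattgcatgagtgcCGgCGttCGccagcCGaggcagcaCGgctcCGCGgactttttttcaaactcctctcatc
Gas1: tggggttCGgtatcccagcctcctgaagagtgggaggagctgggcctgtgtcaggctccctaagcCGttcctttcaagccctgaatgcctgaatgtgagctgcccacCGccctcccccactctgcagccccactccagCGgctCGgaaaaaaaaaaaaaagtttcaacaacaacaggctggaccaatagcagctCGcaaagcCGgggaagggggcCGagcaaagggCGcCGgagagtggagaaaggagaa
These stretches hold 41 CG dinucleotides for *Ptch1*, 15 for *Smo*, 22 for *Gli2* and 10 for *Gas1*. Over 32851 promoters of the same length the median was 6 and the upper quartile 16, which *Smo* and *Gas1* did not reach. The stretches of *Gli3* (34) and *Hhip* (28) were above that quartile. The windows of 300 bases that include 50 after the start site were searched on both strands for the GLI consensus GACCACCCA, which 0.253% of all promoters hold, and for its part CCACCCA, which 9.30% hold. None of the 6 windows held either. The SOX hexamers ACAAAG and ACAATG, found in 18.7% and 12.6% of all windows, gave a single match, ACAAAG in *Smo* from base 13 after the start. These are matches of letters and no measure of binding.

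None of the 9 Hedgehog genes passed the test between *Sox3* null and control cells, in the fit with limma over 23410 named transcript clusters and with batch as a further term. A gene was said to pass, rise or fall at a Benjamini-Hochberg adjusted p of 0.05 or less, which 1.55% of all transcript clusters reached (1.15% higher and 0.393% lower in *Sox3* null cells), and 0.431% when a fold change of 1.4 was also asked for. At an unadjusted p under 0.05 there were 2 of the 9, *Gas1* and *Ptch1*, both higher in null cells, where 13.1% of all transcript clusters reached that level and 7.31% did so upwards, and a plain linear model with each gene's own variance also passed none. The median log2 difference of the 9 genes was 0.03, and 7 lay above 0, as did 50.0% of all transcript clusters. All 9 of the 95% intervals lay between -0.22 and 0.36 and so exclude a change of array signal of 1.4-fold (0.485 on the log2 scale) in either direction. They do not bound the change of RNA, which the signal can understate. *Sox3*, whose only exon is lost in null cells, differed by -1.31 in the same fit. These are bulk cultures, in which fewer cells of a type and less RNA per cell cannot be told apart.

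**Figure D1:**
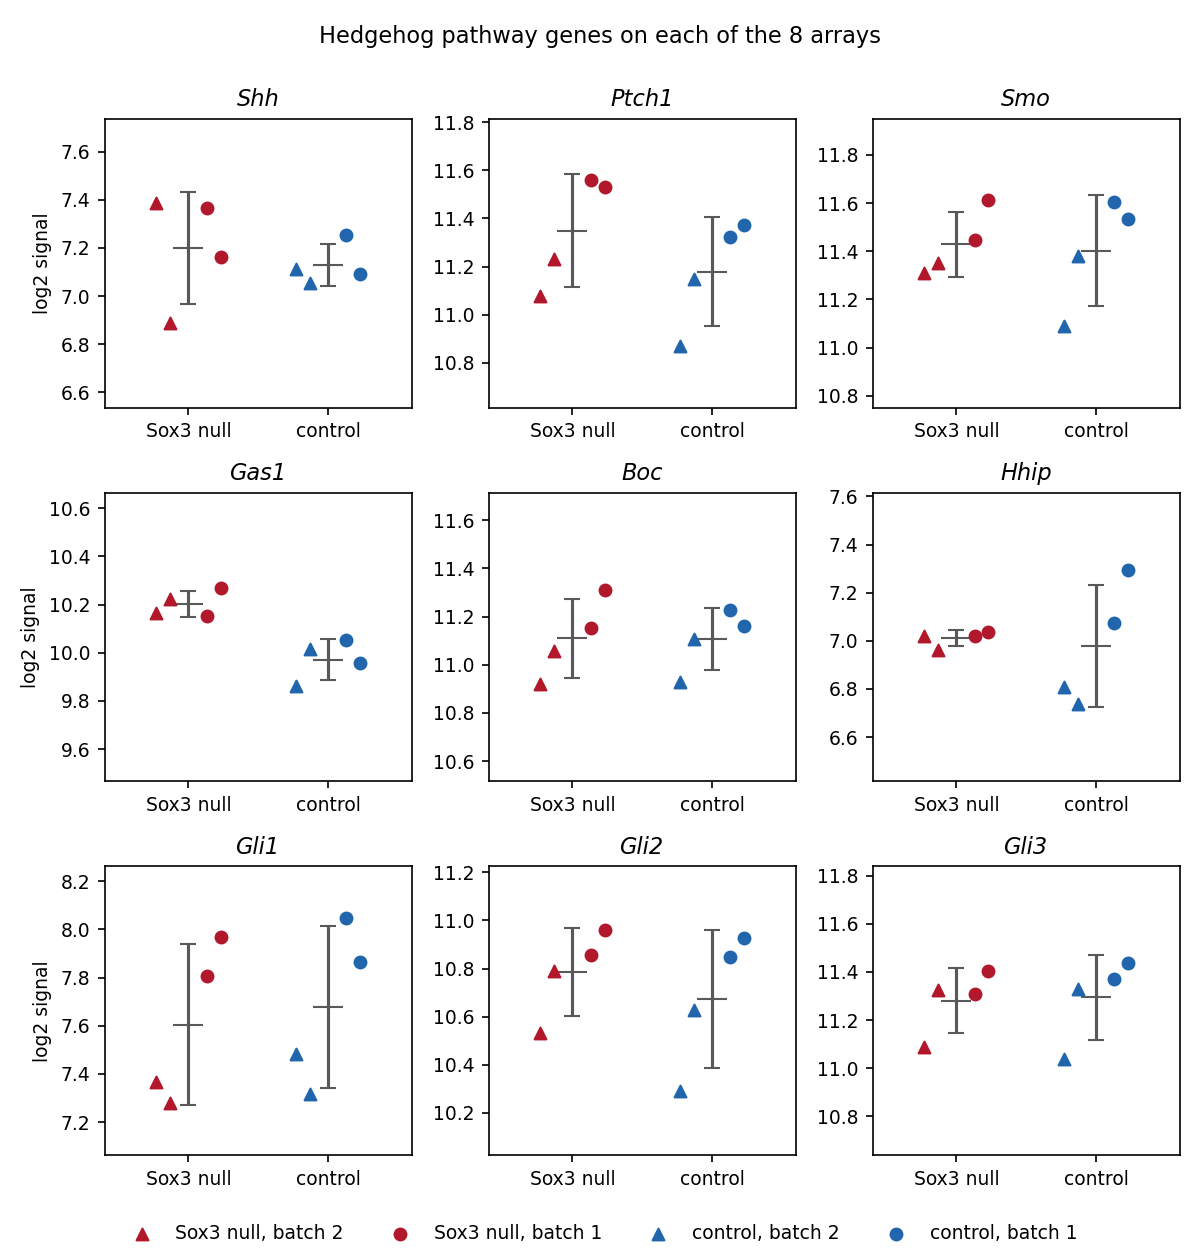
Log2 signal (vertical axes, all panels spanning the same range) of the 9 Hedgehog pathway genes in 4 *Sox3* null and 4 control cultures. Triangles are batch 2 and circles batch 1, and grey bars give the mean and SD of 4 arrays; for *Gas1* every null array lies above every control array, and for *Gli1* every batch 2 array lies below every batch 1 array.

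*Gas1*, which encodes a membrane-anchored co-receptor for SHH, had the greatest difference between genotypes. In *Sox3* null cells it read 10.16 and 10.22 in batch 2 and 10.15 and 10.27 in batch 1, and in control cells 9.86 and 10.02 in batch 2 and 10.05 and 9.96 in batch 1. Every null array thus lay above every control array, a separation upwards that 2.41% of all transcript clusters showed. When arrays were compared only within their batch, 7.01% showed it in both batches. The means were 10.20 ± 0.0550 in *Sox3* null cells against 9.97 ± 0.0836 in control cells (SD, n = 4 each), a log2 difference of 0.23 with a 95% interval of 0.11 to 0.36 (adjusted p = 0.0822 from limma). *Gas1* passed under none of 23 alternatives, with an adjusted p between 0.0505 and 0.582.

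*Boc* encodes another co-receptor and did not follow *Gas1*. It read 10.92 and 11.06 in batch 2 and 11.15 and 11.31 in batch 1 in *Sox3* null cells, and 10.93 and 11.11 in batch 2 and 11.23 and 11.16 in batch 1 in control cells. The genotypes overlapped throughout, and the difference was 0.00 with a 95% interval of -0.13 to 0.14.

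*Ptch1*, the ligand receptor and a target gene, read 11.08 and 11.23 in batch 2 and 11.56 and 11.53 in batch 1 in *Sox3* null cells. In control cells it read 10.87 and 11.15 in batch 2 and 11.32 and 11.37 in batch 1. In batch 1 the null pair lay above the control pair, and in batch 2 the pairs overlapped. The log2 difference of null minus control was 0.17 (95% interval 0.02 to 0.32, adjusted p = 0.295 from limma). Taken separately, batch 2 gave 0.15 and batch 1 gave 0.20. In order of level, null cells of batch 1 came first, then control cells of batch 1, null cells of batch 2 and control cells of batch 2, and only the last pair overlapped.

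*Smo* encodes the membrane protein that relays the signal into the cell. It read 11.31 and 11.35 in batch 2 and 11.45 and 11.61 in batch 1 in *Sox3* null cells, against 11.09 and 11.38 in batch 2 and 11.61 and 11.53 in batch 1 in control cells. The control arrays of batch 2 enclosed both null arrays of that batch, and the difference between genotypes was 0.03 (95% interval -0.13 to 0.19).

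The ligand gene *Shh* read 7.39 and 6.89 in batch 2 and 7.37 and 7.16 in batch 1 in *Sox3* null cells. It read 7.11 and 7.05 in batch 2 and 7.25 and 7.09 in batch 1 in control cells. The highest and the lowest of the 8 values both belonged to null cultures of batch 2, and the SD was 0.232 in null cells and 0.0864 in control cells. The difference was 0.07 (95% interval -0.14 to 0.29), and it was 0.18 without *Sox3* null replicate 4 and -0.023 without *Sox3* null replicate 3.

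*Hhip*, the ligand-binding inhibitor, read 7.02 and 6.96 in batch 2 and 7.02 and 7.04 in batch 1 in *Sox3* null cells, and 6.81 and 6.74 in batch 2 and 7.07 and 7.29 in batch 1 in control cells. Within batch 2 the null pair lay above the control pair, and within batch 1 it lay below. The difference of null minus control was 0.22 in batch 2 (95% interval 0.02 to 0.41) and -0.15 in batch 1 (95% interval -0.35 to 0.04). The genotype by batch term was 0.37 (95% interval 0.10 to 0.64), with an unadjusted p of 0.0125 and an adjusted p of 1.0 from limma. No Hedgehog gene passed for this term, nor did any other transcript cluster (0% of 23410), while 3.05% of all had an unadjusted p under 0.05.

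**Figure D2:**
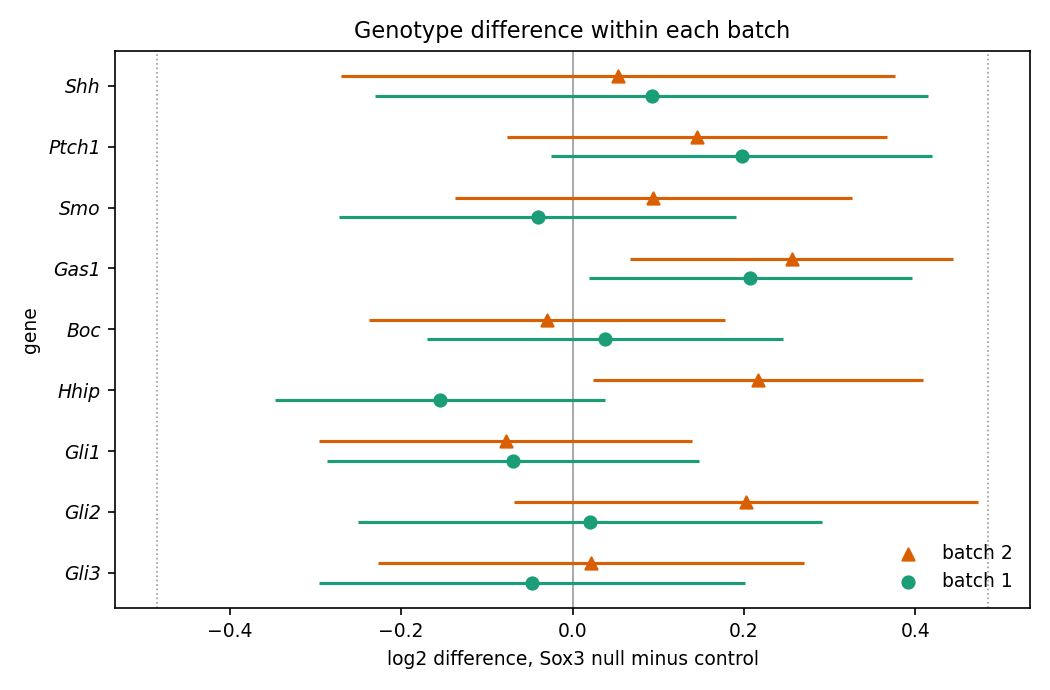
Log2 difference of *Sox3* null minus control (horizontal axis) for each of the 9 genes within batch 2 (triangles) and within batch 1 (circles), each from 2 arrays of either genotype, with 95% intervals from limma. Dotted lines mark a fold change of 1.4; *Gas1* lies at 0.26 and 0.21, and *Hhip* lies on opposite sides of 0.

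Of the transcription factors, *Gli1*, an activator whose transcription depends on the pathway, read 7.37 and 7.28 in batch 2 and 7.80 and 7.97 in batch 1 in *Sox3* null cells. It read 7.48 and 7.32 in batch 2 and 8.05 and 7.86 in batch 1 in control cells. The genotypes overlapped in either batch, with a log2 difference of -0.07 (95% interval -0.22 to 0.07). *Gli2*, the main activator in early signalling, read 10.53 and 10.79 in batch 2 and 10.86 and 10.96 in batch 1 in null cells. In control cells it read 10.29 and 10.63 in batch 2 and 10.85 and 10.93 in batch 1, and its difference was 0.11 (95% interval -0.08 to 0.30). *Gli3*, which acts largely as a repressor, read 11.09 and 11.32 in batch 2 and 11.31 and 11.40 in batch 1 in null cells, and 11.04 and 11.33 in batch 2 and 11.37 and 11.44 in batch 1 in control cells. Its difference was -0.01 (95% interval -0.18 to 0.15). None of the 3 factors separated the genotypes.

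Between the batches 8 of the 9 genes differed by more than between the genotypes, the exception being *Gas1*. The share of all transcript clusters with this order was not counted. Far more of them passed between the batches than between the genotypes (20.2% against 1.55%), but this does not give that share. Whether the order is particular to the Hedgehog genes was not tested. All 9 Hedgehog genes had a lower mean in batch 2 than in batch 1, where 49.1% of all transcript clusters did. By limma *Gli1*, *Ptch1*, *Gli2*, *Smo* and *Boc* fell, 5 of the 9, and none rose. Over all transcript clusters 20.2% passed, 9.35% lower and 10.9% higher in batch 2. The median log2 difference of batch 2 minus batch 1 was -0.22 for the 9 genes and 0.00 for all. For 6 of the 9 genes, these 5 and *Hhip*, every batch 2 array lay below every batch 1 array, as for 9.34% of all transcript clusters. For *Hhip* this rests on a gap of less than the rounding of its values, between 7.02006 in *Sox3* null replicate 3 of batch 2 and 7.02042 in *Sox3* null replicate 1 of batch 1.

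*Gli1* differed most between the batches. Its mean was 7.36 ± 0.0898 in batch 2 against 7.92 ± 0.108 in batch 1 (SD, n = 4 each), a log2 difference of -0.56 (standard error 0.06, adjusted p = 2.81e-04 from limma), and it alone of the 9 genes also reached a fold change of 1.4 (1.47-fold), as did 1.47% of all transcript clusters in that direction. The difference was -0.56 in *Sox3* null cells and -0.55 in control cells. *Ptch1* had 11.08 ± 0.154 in batch 2 against 11.45 ± 0.116 in batch 1 (SD, n = 4 each), a difference of -0.36 (standard error 0.07, adjusted p = 0.00328), with -0.39 in null cells and -0.34 in control cells. Of the target genes *Gli1*, *Ptch1* and *Hhip*, the last had -0.22 (adjusted p = 0.0768), made up of -0.038 in null cells and -0.41 in control cells. *Gli2* had -0.34 (adjusted p = 0.0176), *Smo* -0.27 (adjusted p = 0.0238) and *Boc* -0.21 (adjusted p = 0.0362), all by limma. *Gli3* (-0.18, adjusted p = 0.117), *Shh* (-0.11, adjusted p = 0.510) and *Gas1* (-0.04, adjusted p = 0.682) did not pass.

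**Figure D3:**
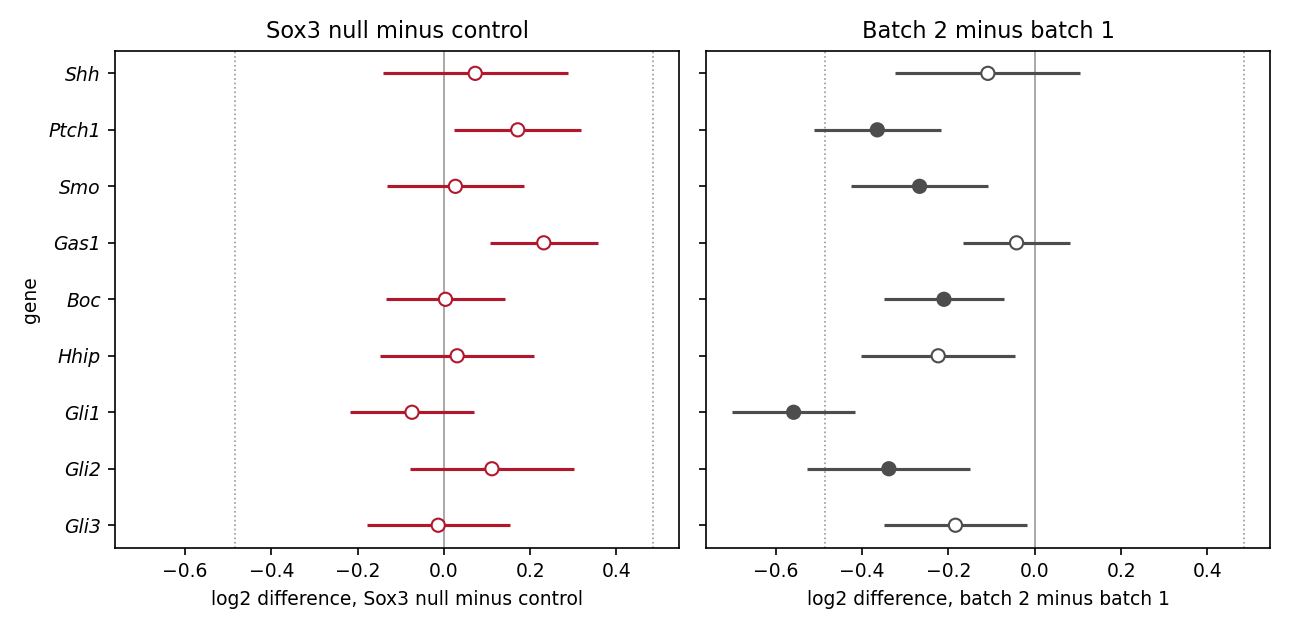
Log2 differences of the 9 genes between *Sox3* null and control cells (left) and between batch 2 and batch 1 (right), from 8 arrays. Points are limma's estimates, filled where the adjusted p was 0.05 or less, lines are 95% intervals and dotted lines a fold change of 1.4; no point is filled on the left, and those of *Ptch1*, *Smo*, *Boc*, *Gli1* and *Gli2* are filled on the right.

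*Gli1* and *Ptch1* kept their calls under most alternatives. Each had an adjusted p of 0.05 or less in 19, of 19 that tested *Gli1* and 20 that tested *Ptch1*, the exception being *Ptch1* in control arrays alone (adjusted p = 0.111). *Gli2* did so in 14 of 20, and *Smo* and *Boc* in 11 of 20. These counts include the alternative that also asked for a fold change of 1.4, with the adjusted p unchanged. There *Gli1* alone passed. *Gli2* missed the threshold without control replicate 2 or *Sox3* null replicate 3, and *Smo* and *Boc* missed it without control replicate 1, 2 or 3 or without *Sox3* null replicate 2 or 3. Over all 35556 rows of the table, and in the plain linear model, *Gli1* and *Ptch1* passed and the other 3 did not. Within batch 2, replicate 4 read above replicate 3 in either genotype for *Ptch1*, *Smo*, *Gas1*, *Boc*, *Gli2* and *Gli3*, and below it in either genotype for *Shh*, *Hhip* and *Gli1*, so that all 9 moved the same way in both genotypes. In batch 1 this held for 4 of the 9 between replicates 2 and 1. The gap in batch 2 was 0.26 in null cells and 0.34 in control cells for *Gli2*, and 0.23 in null cells and 0.29 in control cells for *Gli3*. Across 23410 transcript clusters, deviations of same-numbered arrays from their group mean correlated at 0.305 in batch 2 and -0.324 in batch 1. The share of all transcript clusters moving the same way was not counted, so whether the movement is particular to the Hedgehog genes was not tested.

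*Gli1* had the greatest SD over the 8 arrays, 0.31, and the 5 transcript clusters with the nearest profile are named as a description. After each was centred on its mean, these were *Irgm1*, an interferon-inducible GTPase gene, *Fam181b*, *Sdc4*, which encodes the proteoglycan syndecan 4, *Inf2*, a formin gene, and *Gata6*, a GATA factor of endoderm and mesoderm. Their root mean square distance from *Gli1* over the 8 arrays lay between 0.0605 for *Irgm1* and 0.0729 for *Gata6*. All 5 were lower in batch 2, by differences between -0.48 for *Inf2* and -0.68 for *Fam181b*. *Irgm1* averaged 5.59 over the 8 arrays, below the 95th percentile of the olfactory receptor transcript clusters (6.17).

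Other genes of the pathway were read from lists by role. Of the 69 measured genes of the lists (74 listed), which include target genes, 4 rose and 2 fell in *Sox3* null cells and 63 did not pass, all 6 being targets and none a component. Under alternatives components did pass. These were *Gpc3*, with an intensity trend in the variance and among rows above the median signal, and *Hhat*, without control replicate 4. Of 7 genes of other ligands and of ligand release, 0 passed between the genotypes, and the smallest p-values were those of *Hhat*, the acyltransferase that attaches palmitate to the ligand, and *Scube1*, a secreted protein gene of a family that helps ligand release. *Hhat* read 7.37, 7.33, 7.70 and 7.85 in null cells against 7.04, 7.31, 7.43 and 7.47 in control cells, a difference of 0.25 (adjusted p = 0.131 from limma). *Scube1* had 0.27 (adjusted p = 0.131). Among 3 measured genes of other receptors and ligand-binding proteins, *Gpc3*, a glypican that competes with PTCH1 for ligand, had 0.21 (adjusted p = 0.0753) and the co-receptor gene *Cdon* had 0.19 (adjusted p = 0.385). *Cdon* averaged 5.97 in null cells and 5.78 in control cells, below the 95th percentile of the olfactory receptor transcript clusters (6.17).

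None of 16 measured genes of cytoplasmic transduction passed between the genotypes. Their median was 0.02, with a range from -0.08 to 0.12, and *Sufu*, which encodes the scaffold that restrains the GLI factors, had -0.07 (adjusted p = 0.643 from limma) and *Gpr161*, a ciliary receptor that keeps the pathway low, had 0.12 (adjusted p = 0.616). None of 17 measured primary cilium genes passed, and 13 of them lay above 0 with a median of 0.07. *Ift57*, an intraflagellar transport gene, had 0.17 (adjusted p = 0.197) and *Tctn2*, a gene of the transition zone at the base of the cilium, had 0.16 (adjusted p = 0.208).

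Some components differed between the batches. *Hhat* (-0.35) and *Dhh* (-0.22), which encodes another ligand, fell in batch 2, as did *Gpc3* (-0.35) and *Lrp2* (-0.43), an endocytic receptor that binds SHH. *Dhh* averaged 5.64 in batch 2 and 5.87 in batch 1, below the 95th percentile of the olfactory receptor transcript clusters (6.17), and it kept its call only in the fit without *Sox3* null replicate 4 among the 8 fits without 1 array (adjusted p 0.00494 to 0.134 by limma). *Lrp2* missed the threshold without control replicate 3 or *Sox3* null replicate 2 or 3. Of the 16 transduction genes 1 fell, *Mgrn1* (-0.20), a ubiquitin ligase gene, and 15 did not pass, with a median of 0.02, and *Mgrn1* missed the threshold without control replicate 1, 2 or 3 or *Sox3* null replicate 2 or 3. Of the 17 cilium genes none fell and 4 rose in batch 2, where 10.9% of all transcript clusters rose. These were *B9d1* (0.42), *Tmem67* (0.33), *Rpgrip1l* (0.31) and *Ift122* (0.19), of which the first 3 belong to the transition zone and the last to intraflagellar transport. The difference between these lists was not tested.

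**Figure D4:**
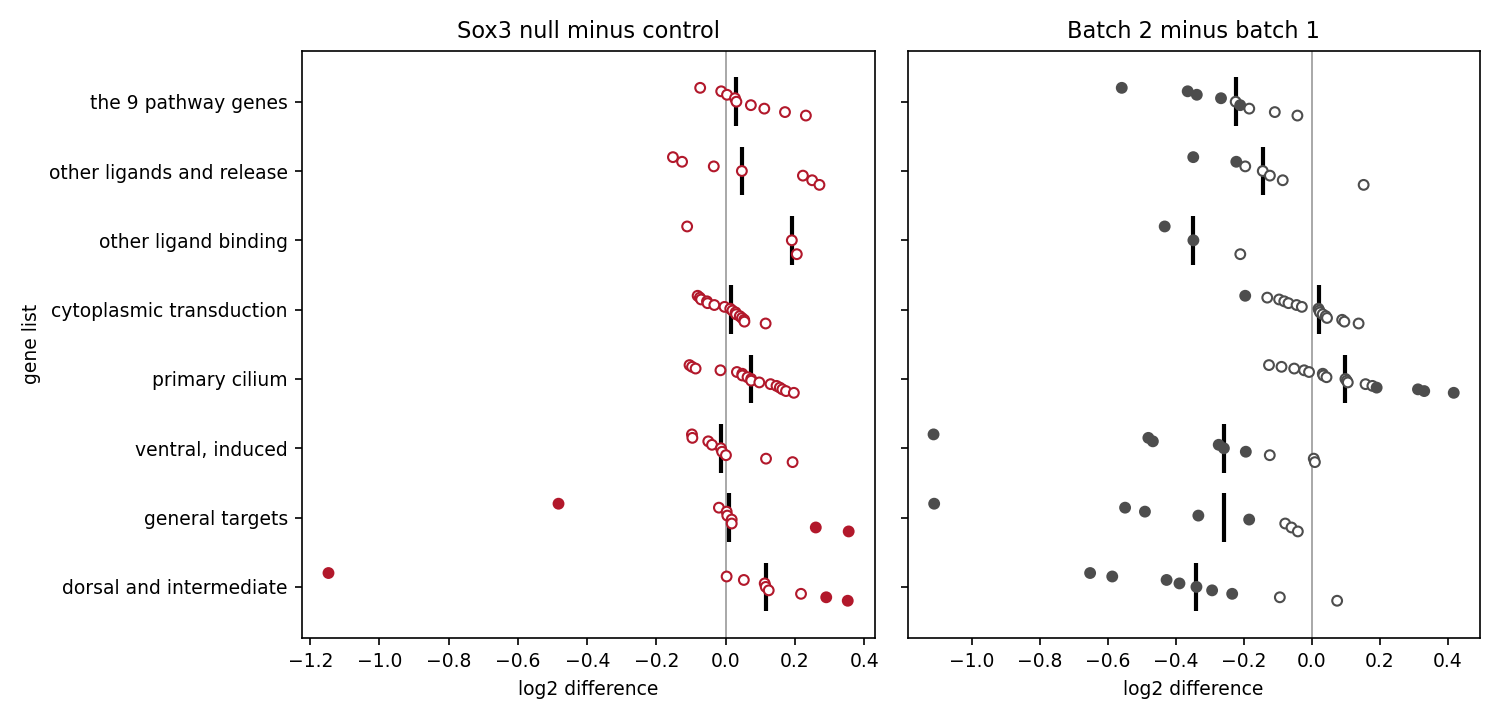
Log2 difference of *Sox3* null minus control (left) and of batch 2 minus batch 1 (right) for the measured genes of 8 lists. Each circle is a gene, filled if it passed, with a bar at the median of the list; between the batches the median is -0.22 for the 9 pathway genes and 0.10 for the primary cilium genes.

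Target genes also differed between the batches. Of 9 ventral neural genes that Hedgehog induces, none passed between the genotypes (median -0.01) and 6 fell in batch 2 (median -0.26). *Nkx2-9*, a homeobox gene of the most ventral progenitors, read 8.13 and 7.99 in batch 2 and 8.91 and 8.92 in batch 1 in *Sox3* null cells, and 7.51 and 7.87 in batch 2 and 9.13 and 8.98 in batch 1 in control cells. Its batches did not overlap, with a difference of -1.11 (standard error 0.11, adjusted p = 1.23e-04 from limma). *Nkx6-1* (-0.48) and *Nkx6-2* (-0.47), homeobox genes of the ventral neural tube, *Foxa2* (-0.27) and *Foxa1* (-0.26), forkhead genes of the floor plate, and *Olig2* (-0.19), a factor of motor neuron progenitors, were the others that fell. Without 1 array, *Foxa1* missed the threshold in 5 of 8 fits (without control replicate 1, 3 or 4 or *Sox3* null replicate 1 or 4), with an adjusted p of up to 0.0752. *Foxa2* also missed it in 5 (without control replicate 1, 3 or 4 or *Sox3* null replicate 2 or 4), with up to 0.0998. *Olig2* missed it in 6, keeping it only without control replicate 3 or *Sox3* null replicate 4, with up to 0.100. *Nkx2-9*, *Nkx6-1* and *Nkx6-2* passed in all 8. *Nkx2-1*, *Nkx2-2* and *Olig1* did not pass, and *Nkx2-2* averaged 5.74 in batch 2 and 5.86 in batch 1, below that olfactory receptor percentile. Between genotypes, *Olig2* had 0.19 (adjusted p = 0.151) and *Olig1* -0.10 (adjusted p = 0.443).

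Of 8 measured general targets, *Bcl2*, an inhibitor of apoptosis, and *Ccnd2*, a D-type cyclin gene, rose in *Sox3* null cells and *Fst*, which encodes the activin antagonist follistatin, fell. *Fst* read 10.19, 10.03, 10.30 and 10.37 in null cells against 10.73, 10.74, 10.67 and 10.68 in control cells, a difference of -0.48 (standard error 0.07, adjusted p = 0.00517 from limma). *Bcl2* had 0.36 (adjusted p = 0.0263) and *Ccnd2* 0.26 (adjusted p = 0.0327). *Ccnd2* missed the threshold in all 8 fits without 1 array (adjusted p 0.0536 to 0.0997), and *Bcl2* missed it without control replicate 1, 2 or 3 or *Sox3* null replicate 1 or 4. Between the batches 5 of the 8 fell and none rose, namely the mesodermal forkhead genes *Foxf1* (-1.11) and *Foxf2* (-0.33), *Bcl2* (-0.55), *Mycn* (-0.49), a proto-oncogene of proliferating progenitors, and *Ccnd2* (-0.18), which missed the threshold without control replicate 1, 2 or 3 or *Sox3* null replicate 2. *Foxf2* averaged 5.82 in batch 2 and 6.15 in batch 1, below the 95th percentile of the olfactory receptor transcript clusters (6.17). *Mycn* read 10.89, 10.84, 10.89 and 10.75 in batch 2 against 11.32, 11.34, 11.37 and 11.31 in batch 1.

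Of 9 dorsal and intermediate genes that Hedgehog represses, *Pax7* (0.35, adjusted p = 0.00868) and *Pax3* (0.29, adjusted p = 0.0266), paired box genes of the dorsal neural tube, rose in *Sox3* null cells by limma, and *Dbx1*, a homeobox gene of intermediate progenitors, fell by 1.15 on the log2 scale. The other 6 did not pass. *Pax3* missed the threshold in 7 of the 8 fits without 1 array, the exception being the one without control replicate 2. Adjusted over all 35556 rows, *Dbx1* alone of these target genes passed between the genotypes. Between the batches 7 of the 9 also fell, namely *Msx2* (-0.65), *Msx1* (-0.59), *Pax3* (-0.43), *Pax7* (-0.39), *Irx3* (-0.34), *Dbx1* (-0.29) and *Irx5* (-0.23). *Irx5* missed the threshold in 1 of the 8 fits without 1 array. *Pax6* (0.07) and *Dbx2* (-0.09) did not pass, and the ventral and the dorsal lists were not tested against each other. The mean level of the ventral list lay between 6.96 and 7.12 in batch 2 and between 7.31 and 7.42 in batch 1, and that of the dorsal and intermediate list between 9.35 and 9.40 in batch 2 and between 9.70 and 9.72 in batch 1.

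**Figure D5:**
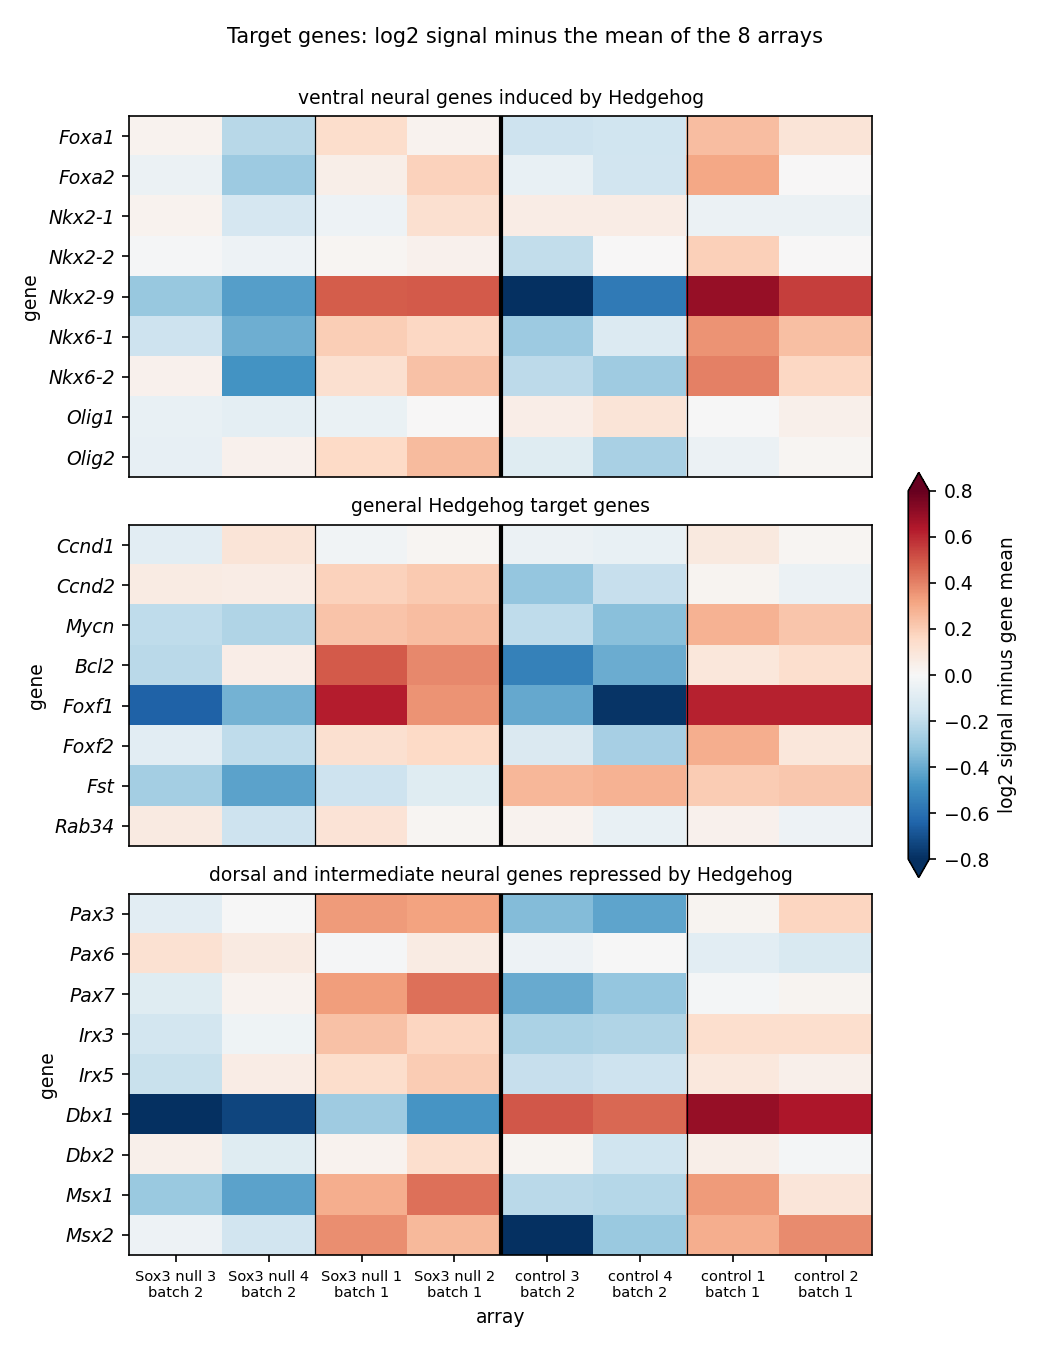
Log2 signal of each target gene minus its mean over 8 arrays (colour, saturating at the ends of the bar) in 4 *Sox3* null arrays (left of the thick line) and 4 control arrays, with thin lines between the batches. *Nkx2-9*, *Foxf1* and *Mycn* are low on the 4 arrays of batch 2, and *Dbx1* is low on the 4 null arrays.

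Some markers of other cell types differed between the batches too. Of 9 fibroblast markers *Col1a2* (-0.50) and *Col1a1* (-0.31) fell in batch 2, and the mean level of the list lay between 6.78 and 6.85 in batch 2 and between 6.91 and 7.02 in batch 1. Of 5 endoderm markers *Gata6* fell (-0.61), and the list lay between 7.74 and 7.89 in batch 2 and between 7.86 and 7.998 in batch 1. Of 6 pluripotency markers *Esrrb* (-0.28) and *Klf4* (-0.27) fell, and the list lay between 8.43 and 8.597 in batch 2 and between 8.46 and 8.75 in batch 1. Of 5 notochord and floor plate markers *Foxa1* and *Foxa2* fell, as given above, and the list lay between 6.98 and 7.16 in batch 2 and between 7.15 and 7.28 in batch 1. Among 5 neuronal markers *Dcx* rose (0.28) and *Stmn2* fell (-0.27), and the list lay between 9.33 and 9.72 in batch 2 and between 9.32 and 9.49 in batch 1. The neural progenitor markers *Nes* (-0.31) and *Hes5* (-0.27) fell, and their list of 6 lay between 11.23 and 11.50 in batch 2 and between 11.42 and 11.64 in batch 1. The part of these cell types in the batch differences of *Gli1*, *Ptch1*, *Gli2*, *Smo* and *Boc* was not tested.

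Between the genotypes the mean of the 6 neural progenitor markers lay between 11.50 and 11.64 in *Sox3* null cells and between 11.23 and 11.45 in control cells, and *Nes* rose in null cells (0.49). The mean of the 5 neuronal markers lay between 9.45 and 9.72 in null cells and between 9.32 and 9.40 in control cells, and *Map2* rose (0.47), though not without control replicate 3 or *Sox3* null replicate 1. Of these 5 markers 4 lay above 0, and *Stmn2* went the other way (-0.17) without passing. The fibroblast list overlapped, between 6.78 and 6.9999 in null cells and between 6.79 and 7.02 in control cells, with *Twist1* (0.49) and *Prrx1* (0.29) higher and *Thy1* (-0.51) lower in null cells. *Prrx1* passed in 1 of 8 fits without 1 array, that without *Sox3* null replicate 2 (adjusted p 0.0289 to 0.125 by limma). The endodermal *Cxcr4* rose (0.41), though not without control replicate 3, and *Sox17* (-0.06), *Gata4* (-0.13), *Gata6* (-0.13) and *Afp* (-0.07) did not pass, with the list between 7.74 and 7.998 in null cells and between 7.77 and 7.97 in control cells. The pluripotency gene *Nanog* fell by 0.37, with the list between 8.43 and 8.55 in null cells and between 8.47 and 8.75 in control cells. The other 5 pluripotency markers did not pass, and 2 of them lay above 0. *Nanog* passed in 1 of 8 fits without 1 array, that without control replicate 4 (adjusted p 0.0200 to 0.152 by limma). No notochord or floor plate marker passed, and the smallest p-values were those of *Spon1* (-0.16) and *Noto* (-0.06). That list lay between 6.98 and 7.16 in null cells and between 7.13 and 7.28 in control cells. The part of these cell types in the difference of *Gas1* was not tested.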

How the data were processed

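The authors deposited log2 signals per transcript cluster, already normalized and summarised, from Mouse Gene 1.0 ST arrays of Affymetrix, 1 for each of 8 cultures. Partek is named in the processing notes of the submitters. The sources used here do not give the method of normalization and summary or the genome build. Of 35556 rows, the platform annotation gave 21789 with 1 symbol and 1621 with several, and 12146 were unnamed here. Symbols were updated through gene numbers with the gene table of GRCm38.p6, in which 21698 rows matched. A gene with several rows is given by its brightest row.

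The 23410 named rows were fitted in R 4.3.3 by limma 3.58.1 on genotype and batch, with moderated variances and Benjamini-Hochberg adjustment over all of them. The methods name a two-way ANOVA with batch as a factor, which was run as an alternative in a plain linear model. A genotype by batch term gave the values within batches. The fits were tested on simulated data. P-values judge a difference against the spread between these cultures that remains after genotype and batch. Each batch is a single differentiation series, so the p-values between the batches do not cover variation between further series. The median residual SD was 0.0869, and the number of arrays limits the precision.

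The 9 genes, the lists and the tests were chosen with earlier results of these data known. All 9 genes are named, and of each list the genes that passed, or else the 2 with the smallest p. *Nkx2-1*, *Nkx2-2*, *Dbx2*, *Pax6*, *Sox17*, *Gata4* and *Afp* fall outside this rule and complete their lists, and *Zfp42*, *Pou5f1* and *Esrrb* are named as markers above the median signal. The nearest rows to the most variable gene were named by root mean square distance. The alternatives changed the rows tested, the batch term, the variance estimate, the scaling, the weights, the fold threshold and the arrays used.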

Additional observations from a re-analysis of the deposited data

How the results depend on the processing

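No alternative passed any of the 9 Hedgehog genes between *Sox3* null and control cells, and none passed one for the genotype by batch term, including the fits without 1 array. The sign of the genotype difference turned for genes near 0. *Boc* had -0.013 when the arrays were quantile normalized again, -0.0023 when they were centred on the median and -0.030 in batch 2 alone. *Gli3* had 0.022 in batch 2 alone. *Hhip* had -0.011 with array weights and -0.155 in batch 1 alone. *Smo* had -0.041 in batch 1 alone, and *Noto* had 0.061 in batch 2 alone. Without 1 array the difference ran from -0.034 to 0.047 for *Boc*, -0.078 to 0.038 for *Gli3*, -0.021 to 0.11 for *Hhip*, -0.046 to 0.074 for *Smo*, -0.023 to 0.18 for *Shh* and -0.12 to 0.0061 for *Noto*. Of the 9 genes, 5 passed between the batches, against 2 over all rows of the table, 2 in the plain linear model, 2 in *Sox3* null arrays alone, 1 in control arrays alone and 1 with the fold threshold, and 2 to 5 without 1 array. Of the other pathway and target genes, 6 passed between the genotypes, against 1 over all rows, 1 in the plain linear model, 1 with the fold threshold and 1 in either batch alone (*Dbx1* in all of these), 2 with the batch term left out, 2 when batch was instead a random block, and 3 to 5 without 1 array. In null or control arrays alone and in either batch alone there are fewer samples. The cause of the other changes was not tested. The replicate numbers were not taken to pair the cultures. Deviations of same-numbered arrays from the mean of their genotype and batch correlated at 0.305 in batch 2 and -0.324 in batch 1 across 23410 transcript clusters, and 9 of the 9 Hedgehog genes moved the same way in both genotypes in batch 2 and 4 of 9 in batch 1. With the replicate number as a block, 0 of the 9 Hedgehog genes and 4 of the other genes passed between the genotypes, and 353 transcript clusters in place of 362. *Shh*, *Hhip* and *Gli1* lay below the median signal, and a filter at that median left these 3 untested.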
